A study of Mus musculus with 54 samples.

Results

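The 10 transcripts described here are Cdkn1a, Ccng1, Btg2, Plk2, Psrc1, Gtse1, Mdm2, Zmat3, Phlda3 and Gm16197, an older name of Trp53cor1. They were chosen by name as known targets of p53 in cell-cycle arrest and feedback. The rule uses no measured value, but earlier results of these data were known when the members were chosen. All 10 were present among the 19232 genes of the P5 table, the 19432 of the P28 table and the 17827 of the 9-week table. Tests covered the genes that reached 1 CPM (read counts scaled to library size) in at least 3 libraries at P5, 5 at P28 or 7 at 9 weeks, which kept 10 of the 10 at P5, 10 at P28 and 8 at 9 weeks.

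RNA came from whole mouse cerebellum, and the groups differ in which genes were deleted with Nes-cre, a recombinase driven by nestin sequences and active in neural progenitors and their descendants. Cells of other origin, such as microglia and endothelium, keep their alleles in such mice, so whole tissue holds RNA from cells without the deletion. At P5 there were 3 Control, 3 RnaseH2B Nes-cre, 3 Atm Nes-cre and 3 p53 Nes-cre libraries, with 4 libraries each of RnaseH2B,Atm Nes-cre and RnaseH2B,p53 Nes-cre. The P28 set held Control, RnaseH2B Nes-cre, Atm Nes-cre and RnaseH2B,Atm Nes-cre, with 5 libraries in each group. The 9-week set had 7 Control and 7 RnaseH2B Nes-cre libraries. Below they are called control, Rnaseh2b, Atm, p53, Rnaseh2b/Atm and Rnaseh2b/p53. Whether controls carried Cre or floxed alleles is not given in the sources used here. P5 and 9-week libraries were made from total RNA and P28 libraries from poly-A RNA, so levels are not compared between ages. Nothing in the labels ties each replicate to an animal of its own, and a p value here reflects spread among these samples, which may be technical.

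Rnaseh2b encodes a subunit of RNase H2, the enzyme that removes ribonucleotides built into DNA. Unrepaired ribonucleotides lead to DNA breaks, which the kinase ATM signals in part through the transcription factor p53. p53 binds response elements near its targets and raises their transcription. Its targets stop the cell cycle, kill the cell or act back on p53 itself. In the newborn cerebellum, granule neuron progenitors are still dividing, and p53 is known to arrest or remove those with damaged DNA.

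Among the arrest genes, Cdkn1a encodes p21, an inhibitor of cyclin-dependent kinases, and Btg2 encodes an antiproliferative protein that also marks differentiating neural progenitors. Psrc1 and Gtse1 encode microtubule-binding proteins of dividing cells, and Gtse1 also restrains p53. Plk2 encodes a polo-like kinase that in neurons is also an activity-induced gene. Of the feedback genes, Mdm2 encodes the ubiquitin ligase that marks p53 for destruction, and Ccng1 encodes cyclin G1, which acts with the phosphatase PP2A on MDM2. Zmat3 encodes an RNA-binding zinc-finger protein, and Phlda3 encodes a pleckstrin-homology protein that inhibits AKT signalling. Gm16197 is the long non-coding RNA lincRNA-p21, whose gene lies next to Cdkn1a on chromosome 17 in the RefSeq annotation of GRCm38.p6.

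The bases just before an annotated start site are shown for 4 members, because their transcripts responded differently: Cdkn1a, Ccng1 and Phlda3 each rose in at least 1 P5 comparison, whereas Mdm2 rose in none. Sequences are from RefSeq for GRCm38.p6, read 5′ to 3′ on the gene's strand, and capitals mark matches to the p53 consensus decamer half-site. The consensus is its own reverse complement, so 1 scan covers both strands. The Cdkn1a window is chr17:29090729-29090978 on the plus strand, and the Ccng1 window is chr11:40755287-40755536 on the minus strand. The Mdm2 window is chr10:117710759-117711008 on the minus strand, and the Phlda3 window is chr1:135765835-135766084 on the plus strand.
Cdkn1a: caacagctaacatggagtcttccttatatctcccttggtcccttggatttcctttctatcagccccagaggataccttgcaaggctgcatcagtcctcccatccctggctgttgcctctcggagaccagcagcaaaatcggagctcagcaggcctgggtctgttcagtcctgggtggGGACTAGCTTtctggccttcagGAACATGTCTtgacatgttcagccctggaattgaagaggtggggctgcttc
Ccng1: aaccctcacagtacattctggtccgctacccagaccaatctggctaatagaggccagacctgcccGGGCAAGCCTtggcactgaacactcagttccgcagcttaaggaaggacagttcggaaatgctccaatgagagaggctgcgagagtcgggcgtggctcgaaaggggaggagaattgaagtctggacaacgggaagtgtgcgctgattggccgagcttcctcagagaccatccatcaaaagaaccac
Mdm2: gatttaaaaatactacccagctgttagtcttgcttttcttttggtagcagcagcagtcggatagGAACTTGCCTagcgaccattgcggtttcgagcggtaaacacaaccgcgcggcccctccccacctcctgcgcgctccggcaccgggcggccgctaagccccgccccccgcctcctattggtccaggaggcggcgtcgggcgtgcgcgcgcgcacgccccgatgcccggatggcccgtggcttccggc
Phlda3: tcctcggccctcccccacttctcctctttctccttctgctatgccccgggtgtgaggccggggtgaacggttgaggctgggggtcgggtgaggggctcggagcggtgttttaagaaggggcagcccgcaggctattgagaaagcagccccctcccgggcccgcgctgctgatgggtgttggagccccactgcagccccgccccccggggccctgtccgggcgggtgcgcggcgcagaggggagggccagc

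The Cdkn1a window shown belongs to the more upstream of its annotated starts and held 2 half-sites. These began at -73 and -51 counted from that start and were separated by 12 bases. Only exact matches to the consensus were marked, so near matches are left in small letters. Ccng1 held 1 half-site at -185 and Mdm2 held 1 at -186, while the Phlda3 window held none. Of the 8 members with an entry, which had 11 windows of 250 bases, 3 held a half-site. Across all 32851 windows of that length 7.13% held at least 1, and 0.0639% held a pair no more than 13 bases apart. No match was found in the windows of Btg2, Gtse1, Plk2 and Psrc1, or at a second start of Cdkn1a at chr17:29093519-29093768. These matches describe letters only, and no binding was measured.

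Library sizes recovered from the CPM values ran from 48.2 M to 95.1 M at P5, except for Rnaseh2b/p53 replicate 3 with 711 M, and from 24.1 M to 89.7 M at P28. Depth at 9 weeks is unknown. Rnaseh2b transcripts were lower in every library labelled with its deletion, and Trp53 at P5 was 1.30 to 2.23 log2 CPM in the groups labelled p53 against 2.62 or more elsewhere. Atm transcripts did not separate the Atm group from control at P5 or P28, so that label cannot be checked this way. They were lower in Rnaseh2b/Atm at P28, by 0.78 against control. Cerebellar genes were present in all groups, including granule neuron and Purkinje cell genes. Control 2 and Atm 1 at P5 stood apart, with 18 mitotic genes that summed to 539 and 193 CPM. That sum was 611 to 895 CPM in Rnaseh2b/Atm and 1046 or more in the remaining libraries. Choroid plexus genes in control 2 and Atm 1 summed to 84.9 and 16.6 CPM, although Atm 2 had only 56.9 CPM of these. The P28 Rnaseh2b/Atm libraries also stood apart, with 5 midbrain genes that summed to 484 to 627 CPM against 12.3 to 33.0 in the other groups. Most of that sum was Th, tyrosine hydroxylase, which also occurs in Purkinje cells, at 426 to 588 CPM. The others were smaller but followed it, with Pax7, for instance, at 5.83 to 19.8 CPM against at most 3.52. In the same libraries 5 granule neuron genes summed to 761 to 1571 CPM against 2618 to 3774 elsewhere. In bulk tissue, fewer cells of a type and less RNA per cell cannot be told apart.

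Per unit of transcript length, as FPKM (fragments per kilobase, scaled to library size), Plk2 was the most abundant member in P5 controls at 27.7 ± 3.14 (SD, n = 3), followed by Ccng1 at 23.8 ± 1.96. Mdm2, Cdkn1a, Btg2 and Phlda3 lay together at 9.83 ± 1.17, 9.42 ± 2.04, 9.19 ± 2.88 and 7.69 ± 2.77, within their spread. Gtse1, Psrc1 and Zmat3 followed at 4.30, 3.68 and 3.14, also within their spread. Gm16197 was last at 0.0489 ± 0.0278, which in the 3 control libraries was 4 to 19 reads. In P28 controls Ccng1 led at 12.4 ± 1.34 FPKM, and Psrc1 was last at 0.104 ± 0.0251, below Gtse1 at 0.253 ± 0.0440.

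**Figure D1:**
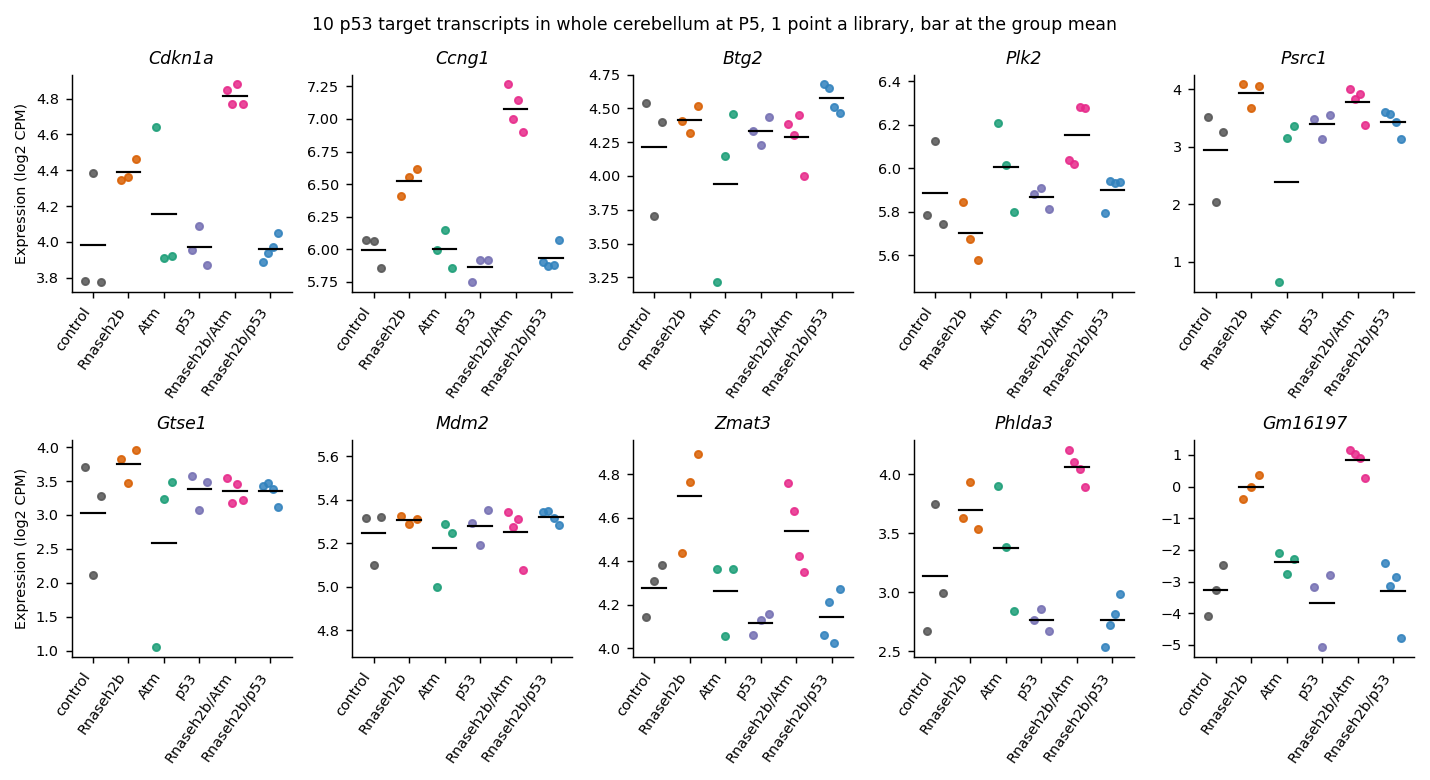
Expression of the 10 transcripts at P5 in log2 CPM (vertical axis) by group (horizontal axis), with 1 point for each library and a bar at the group mean. The 4 Rnaseh2b/Atm libraries sit above all controls for Cdkn1a, Ccng1, Phlda3 and Gm16197, while Mdm2 stays within 5.0 to 5.35 in every group.

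With Rnaseh2b alone deleted at P5, 2 of the 10 transcripts rose, Ccng1 and the non-coding Gm16197, and none fell, in a comparison where 0.681% of all 15421 tested genes were called in either direction and 0.298% higher (limma, adjusted p below 0.05). Ccng1 was 6.07, 6.06 and 5.86 log2 CPM in the controls and 6.41, 6.55 and 6.62 in the Rnaseh2b libraries. The groups did not overlap, and the difference was 0.53 ± 0.0985 log2 (SE), or 1.44-fold, with an adjusted p of 0.0212 by limma. Gm16197 was -4.10, -3.28 and -2.47 log2 CPM in control and -0.40, -0.02 and 0.36 in Rnaseh2b. All mutants were above all controls, at 92 to 105 reads against 4 to 19, and limma gave a difference of 3.26 ± 0.623 with an adjusted p of 0.0238. Gm16197 reached 1 CPM in only 1 Rnaseh2b library and the 4 Rnaseh2b/Atm libraries, so it passed the filter only through the groups where it is high.

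Both calls were lost when control 2, control 3, Rnaseh2b 2 or Rnaseh2b 3 was left out, and when only the compared groups were fitted, where the adjusted p by limma rose to 0.421 for Ccng1 and 0.282 for Gm16197. Over the alternatives the Ccng1 difference lay between 0.46 and 0.59. That of Gm16197 lay between 0.47, on the log2(FPKM + 1) scale that compresses faint transcripts, and 3.66, with 1.88 on the log2(FPKM + 0.1) scale. Cdkn1a was 3.78, 4.38 and 3.78 in control and 4.34, 4.36 and 4.46 in Rnaseh2b, so that only control 2, which stood apart, reached the mutant level. Its difference of 0.41 was not called (adjusted p = 0.291, limma), but without control 2 and Atm 1 it was 0.61 with an adjusted p of 0.00147. Phlda3 was 2.67, 3.75 and 2.99 in control and 3.62, 3.93 and 3.54 in Rnaseh2b, again with control 2 alone among the mutants. Its difference was 0.56 (adjusted p = 0.328) and, without those 2 libraries, 0.87 (adjusted p = 0.0298, limma), which brought the number of called members from 2 to 4. Control 2 was the highest control for Cdkn1a and Phlda3, so leaving it out had to raise both differences. Zmat3 was 4.14, 4.31 and 4.38 in control and 4.44, 4.76 and 4.89 in Rnaseh2b, and Psrc1 was 3.52, 2.03 and 3.26 against 4.08, 3.66 and 4.06. For both, every mutant lay above every control, and the mean differences of 0.42 and 1.0 did not pass the test (adjusted p = 0.147 and 0.425, limma). Here and elsewhere, the share of all tested genes whose groups lie apart was not taken, so such separation is description only. Over the 10 members the median difference was 0.47, beside 0.01 over all tested genes. Mdm2 differed by 0.06, with a 95% interval from -0.11 to 0.24. Regional genes separated the same groups: 9 medulla and pons genes summed to 15 to 53.7 CPM in Rnaseh2b and 0.238 to 14.1 in control, and 7 midbrain genes to 27.2 to 47.1 against 47.2 to 103 CPM. None of them was called, and their part in the result was not tested.

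With Atm or p53 alone deleted, none of the 10 was called against control at P5 by limma, where 0% of all genes were called for Atm and 0.175% for p53, and none of the 10 had an unadjusted p below 0.05. By unadjusted p, 435 and 913 of all genes passed. For Cdkn1a, p53 libraries had 3.95, 4.09 and 3.87 log2 CPM, which differed from control by -0.01 with a 95% interval from -0.36 to 0.34. For Ccng1 they had 5.75, 5.92 and 5.92, a difference of -0.14 with an interval from -0.34 to 0.07.

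With both Rnaseh2b and Atm deleted, 3 members rose against Atm alone at P5: Ccng1, Cdkn1a and Gm16197, where 9.5% of all genes were called and 7.48% were higher. Ccng1 was 7.26, 7.0, 7.14 and 6.90 log2 CPM in Rnaseh2b/Atm against 6.0, 6.15 and 5.86 in Atm. The double mutants were the highest of all 20 libraries, and the difference from Atm was 1.08 ± 0.0921, or 2.11-fold (adjusted p = 1.13e-05, limma). Cdkn1a was 4.85, 4.77, 4.88 and 4.77 against 4.64, 3.91 and 3.92. Again the groups did not overlap, although Atm 1 came near, and limma gave 0.66 ± 0.155 with an adjusted p of 0.0128. That call was lost without Atm 2 or Atm 3, and with only the compared groups fitted, where the adjusted p was 0.108. Gm16197 rose by 3.23 ± 0.582 (adjusted p = 0.00248, limma), from 18 to 23 reads in Atm to 128 to 260 in the double mutant. Its place among the called members carries the limit that it passed the filter only through groups where it is high. Phlda3 was 4.21, 4.10, 4.04 and 3.89 against 3.90, 3.38 and 2.84, which overlapped at Atm 1. Its difference of 0.69 missed the threshold (adjusted p = 0.0717) and passed without control 2 and Atm 1, at 0.95 with an adjusted p of 0.00124 by limma.

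Against control, in a comparison that shares its controls with that of Rnaseh2b alone, Rnaseh2b/Atm had 4 members called higher and none lower, where 9.86% of all genes were called and 6.48% were higher: Ccng1 by 1.08, Cdkn1a by 0.84, Phlda3 by 0.92 and Gm16197 by 4.13. The Phlda3 call was lost without control 1, control 3, Rnaseh2b/Atm 1 or Rnaseh2b/Atm 2, and with only the compared groups fitted. In that last setting the Cdkn1a call was lost too (adjusted p = 0.0597, limma), leaving 2. Of the 4, Gm16197 passed the filter only through Rnaseh2b and Rnaseh2b/Atm libraries. Against Rnaseh2b alone, where 2.04% of all genes were called and 1.38% were higher, 2 members were higher, Ccng1 by 0.55 ± 0.0921 (adjusted p = 0.00693, limma) and Plk2 by 0.45 ± 0.106 (adjusted p = 0.037). Plk2 was 6.04, 6.02, 6.28 and 6.27 log2 CPM in the double mutant and 5.85, 5.67 and 5.58 in Rnaseh2b, without overlap. Leaving out any 1 of Rnaseh2b 2, Rnaseh2b 3, or Rnaseh2b/Atm 2, 3 or 4 ended that call. The difference between the Rnaseh2b effect with and without Atm was not called for any member by limma, at 0% of all genes called, with 2 of the 10 and 884 of all genes at an unadjusted p below 0.05. Beside these results, microglial genes summed to 142 to 162 CPM in Rnaseh2b/Atm and 81.8 to 120 in the other P5 groups, and 5 of the 8 were called higher against Atm. Granule neuron genes summed to 337 to 592 CPM in Rnaseh2b/Atm, and to 727 or more in the other groups except for control 2 and Atm 1. None of these 5 genes was called against Atm. Mitotic genes summed to 611 to 895 CPM in Rnaseh2b/Atm. In the other groups they summed to 1046 or more except for control 2 and Atm 1, and none was called against Atm. Choroid plexus genes summed to 1303 to 2175 CPM, and all 6 were called higher against Atm. Purkinje cell genes summed to 1213 to 1943 CPM in Rnaseh2b/Atm and to at most 1197 in every other P5 group, with 3 of 5 called higher against Atm. Endothelial genes were called higher against Atm for 3 of 5, and astrocyte genes for 2 of 5. The part of these cells in the members' results was not tested.

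When p53 was deleted together with Rnaseh2b, no member was called against p53 alone, where 0.188% of all genes were called, and none had an unadjusted p below 0.05 (607 of all genes did). Cdkn1a was 3.89, 3.94, 3.97 and 4.05 log2 CPM in Rnaseh2b/p53, against 3.95, 4.09 and 3.87 in p53. The difference was -0.01, with a 95% interval from -0.34 to 0.32. Ccng1 was 5.90, 5.87, 5.88 and 6.07, against 5.75, 5.92 and 5.92, which is 0.07 with an interval from -0.12 to 0.26. Gm16197 stayed at 3 to 22 reads in replicates 1, 2 and 4, and the 129 reads in replicate 3 came to 0.139 CPM at its greater depth. Btg2 alone had its groups apart, 0.24 higher in Rnaseh2b/p53, without passing the test, and the share of all genes apart was not taken. Against control no member of Rnaseh2b/p53 was called by limma either, where 0.428% of all genes were, and none of the 10 had an unadjusted p below 0.05 (1316 of all genes did).

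**Figure D2:**
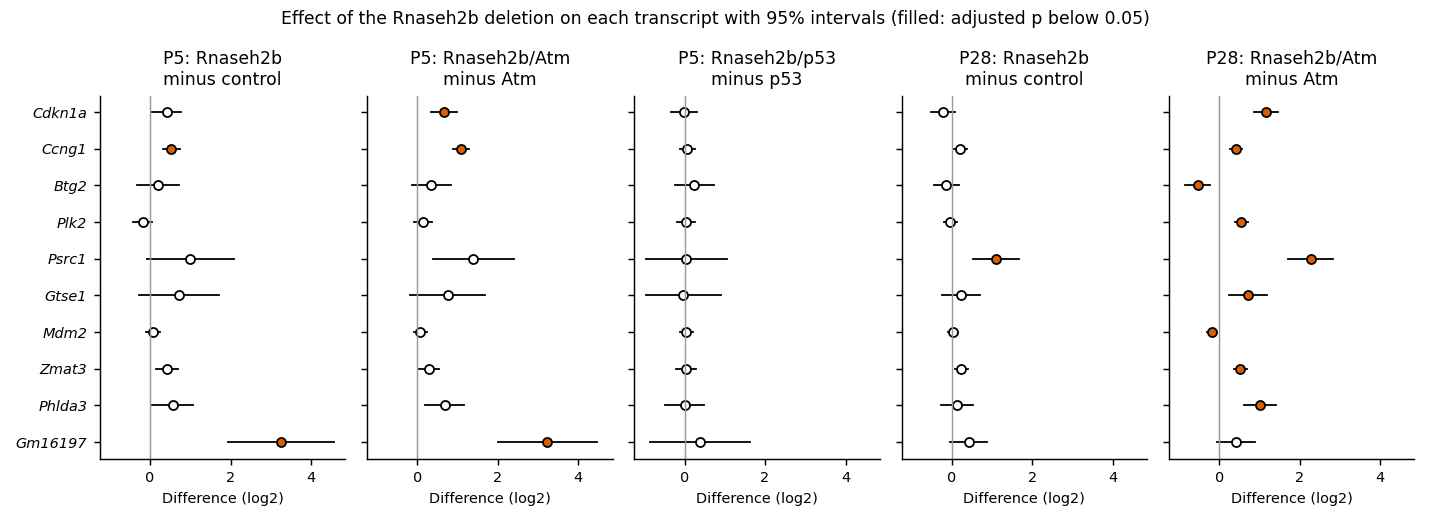
Difference in log2 expression with and without Rnaseh2b (horizontal axis) for the 10 transcripts (vertical axis), on 5 comparisons, with 95% intervals from the limma fit and filled points at adjusted p below 0.05. In Rnaseh2b/p53 minus p53 the differences lie between -0.03 and 0.38, whereas Gm16197 reaches 3.26 and 3.23 in the other P5 comparisons.

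Rnaseh2b/p53 was also compared directly with the other groups that lack Rnaseh2b. Against Rnaseh2b alone, it had 4 members called lower and none higher, where 3.02% of all genes were called and 1.91% were lower. Ccng1 fell by 0.59 (adjusted p = 0.00567, limma), Gm16197 by 3.28 (0.00954), Zmat3 by 0.56 (0.0219) and Phlda3 by 0.94 (0.0367). Zmat3 was 4.06, 4.21, 4.02 and 4.27 log2 CPM in Rnaseh2b/p53 and 4.44, 4.76 and 4.89 in Rnaseh2b. Phlda3 was 2.53, 2.72, 2.82 and 2.98 against 3.62, 3.93 and 3.54. Neither gene overlapped between the groups. The Phlda3 call ended with any 1 library of either group left out, and the Zmat3 call without Rnaseh2b 2, Rnaseh2b 3, Rnaseh2b/p53 1 or Rnaseh2b/p53 3. The Gm16197 call ended without Rnaseh2b 3. Cdkn1a was lower in all 4 Rnaseh2b/p53 libraries than in any Rnaseh2b library, by 0.43. Its adjusted p was 0.14 by limma, or 0.0012 without control 2 and Atm 1, which belong to neither group and left the difference unchanged. Against Rnaseh2b/Atm, where 27.9% of all genes were called and 13.9% were lower, 5 members were lower in Rnaseh2b/p53: Ccng1 by 1.15, Cdkn1a by 0.86, Phlda3 by 1.30, Zmat3 by 0.40 and Gm16197 by 4.15. Only the Zmat3 call was lost in a single leave-out, that of Rnaseh2b/Atm 2. Gm16197, counted against both groups, passed the filter only through Rnaseh2b and Rnaseh2b/Atm libraries.

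Markers of other cells moved with these comparisons of Rnaseh2b/p53. Microglial genes summed to 89.9 to 96.3 CPM in Rnaseh2b/p53 and 108 to 120 in Rnaseh2b, with 3 of 8 called lower, and 7 of 8 were called lower against Rnaseh2b/Atm. Endothelial genes summed to 160 to 174 CPM against 195 to 214 in Rnaseh2b, with 2 of 5 called lower, and astrocyte genes to 1290 to 1448 against 1483 to 1741, with 1 of 5 called lower. Oligodendrocyte genes summed to 173 to 395 CPM in Rnaseh2b/p53 and 557 to 1538 in Rnaseh2b. Midbrain genes summed to 53.3 to 73.2 CPM against 27.2 to 47.1, and medulla and pons genes to 0.499 to 11.6 against 15 to 53.7. None of these ranges overlapped with that of Rnaseh2b, and their part in the members' results was not tested.

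The difference of the differences, the Rnaseh2b effect in p53 mutants less that in p53-intact tissue, was not called for any member by limma, where 1 of 15421 genes (0.00648%) was. Its estimates were -0.46 for Ccng1, -2.88 for Gm16197 and -0.39 for Zmat3, the 3 members with an unadjusted p below 0.05 (1011 of all genes had one). Of the 3, Gm16197 passed the filter only through Rnaseh2b and Rnaseh2b/Atm libraries, where it is high. For Cdkn1a the estimate was -0.42 (adjusted p = 0.806, limma). Without control 2 and Atm 1 it was -0.62, with an adjusted p of 0.017 by limma. Control 2 was the highest control for Cdkn1a, so leaving it out had to enlarge that estimate, and the call is no independent support. Thus a call in Rnaseh2b and none in Rnaseh2b/p53 is not by itself a tested difference.

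Psrc1, Gtse1, Btg2 and Mdm2 varied at P5 together with genes of dividing cells. The log2 of the summed CPM of 18 mitotic genes had a Pearson r over the 20 libraries of 0.78 with Psrc1, 0.89 with Gtse1, 0.92 with Btg2 and 0.85 with Mdm2, and a Spearman rho of 0.41, 0.70, 0.83 and 0.69. These are descriptions, since libraries share groups and each library's scaling. Without control 2 and Atm 1, the 2 farthest from the median, r was 0.02 for Psrc1, 0.55 for Gtse1, 0.72 for Btg2 and 0.62 for Mdm2, so the relation of Psrc1 rested on those libraries. In Atm 1, Psrc1 was 0.65 and Gtse1 1.05 log2 CPM, whereas the other Atm libraries had 3.16 and 3.37 for Psrc1 and 3.24 and 3.49 for Gtse1. Psrc1 and Gtse1 themselves had an r of 0.96. Gtse1 was 3.70, 2.12 and 3.28 in control, 3.82, 3.48 and 3.96 in Rnaseh2b and 3.54, 3.18, 3.45 and 3.23 in Rnaseh2b/Atm. Btg2 was 4.54, 3.70 and 4.40 in control, 4.41, 4.32 and 4.52 in Rnaseh2b and 4.39, 4.30, 4.45 and 4.0 in Rnaseh2b/Atm. For both genes these groups overlapped, and the lowest control was control 2. Cdkn1a, Plk2 and Phlda3 went the other way, with r of -0.60, -0.73 and -0.61, and -0.73, -0.79 and -0.71 without control 2 and Atm 1. For Ccng1 and Gm16197 r was -0.23 and -0.20 over all 20 libraries, and -0.69 and -0.52 without those 2.

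**Figure D3:**
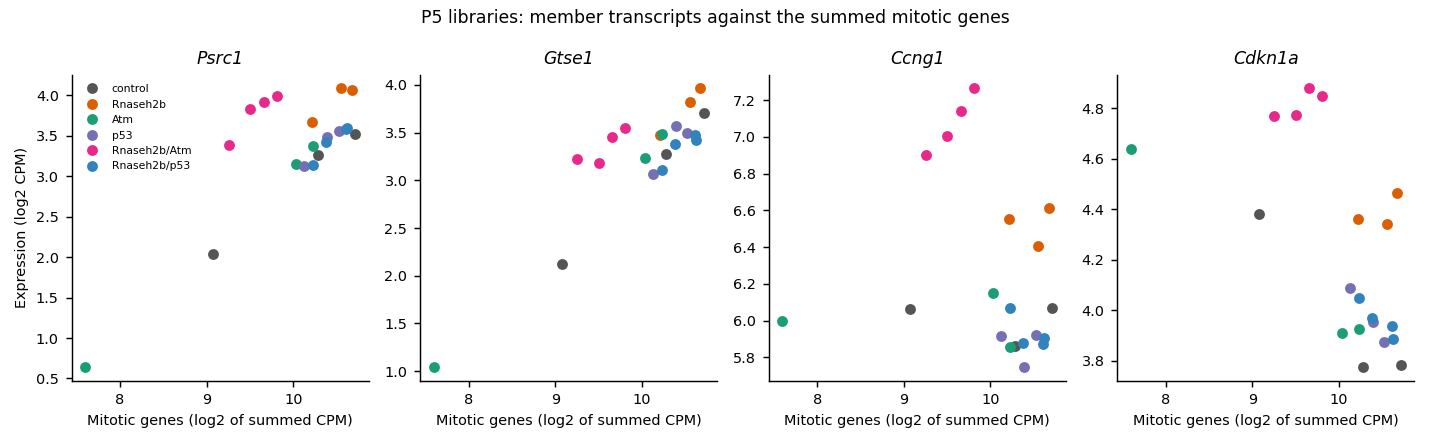
Expression of Psrc1, Gtse1, Ccng1 and Cdkn1a (log2 CPM, vertical axes) against the log2 of the summed CPM of 18 mitotic genes (horizontal axes) in the 20 P5 libraries, coloured by group. Psrc1 and Gtse1 are lowest in Atm 1, at 0.65 and 1.05, where the mitotic sum is lowest, while Ccng1 is highest in the 4 Rnaseh2b/Atm libraries.

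The genes whose P5 pattern was most like that of Ccng1 over the 20 libraries included Ephx1 (r = 0.956), Dgkg, Cpped1 and Igf1. Those most like Cdkn1a were Wwc2 (r = 0.948), Ak1, Nomo1, 6330403L08Rik and Tmtc1. Ephx1, an epoxide hydrolase of detoxification, is itself on the list of p53 targets of metabolism and repair used here.

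Other p53 targets at P5 can be set beside the members by counts. Over all genes, 0.681% were called in Rnaseh2b against control, 9.5% in Rnaseh2b/Atm against Atm, with 7.48% higher, and 0.188% in Rnaseh2b/p53 against p53. Of 13 apoptosis targets tested, 1 rose in Rnaseh2b against control, Pmaip1 by 2.18 (adjusted p = 0.0349, limma). Pmaip1 encodes NOXA, a BH3-only protein that promotes cell death. In Rnaseh2b/Atm against Atm 6 of the 13 rose and none fell, among them Pmaip1 by 3.14, Aen, an apoptosis-enhancing nuclease, by 0.69, and Ei24 by 0.18, with a median of 0.50 beside -0.02 over all genes. Of 11 metabolism and repair targets 3 rose there: Ephx1 by 1.45, Dcxr by 1.53 and Sesn2, a stress-induced sestrin, by 0.66. In Rnaseh2b/p53 against p53 none of these 13 and 11 was called. None of 10 p53 regulators was called in these 3 comparisons, and of 12 tested G1 genes 2 were, Ccne1 by 0.43 and Ccnd3 by 0.50 in Rnaseh2b/Atm against Atm. All 18 mitotic genes stayed uncalled in them.

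In Rnaseh2b against control at P28, Psrc1 rose and no other member was called, where 5.21% of all 16530 tested genes were called and 2.85% were higher. Psrc1 was -1.47, -1.61, -1.47, -1.54 and -2.44 log2 CPM in control and -0.50, -0.54, -0.12, -0.87 and -1.01 in Rnaseh2b. In log2 CPM the groups did not overlap, although their reads did, at 10 to 30 in control and 13 to 46 in Rnaseh2b. The difference was 1.10 ± 0.269 (adjusted p = 0.0269, limma). Psrc1 reached 1 CPM in no library of either group and passed the filter only through the Rnaseh2b/Atm libraries. Leaving out Rnaseh2b 1, 2 or 3 or control 4 or 5 ended the call, as did weighting by recovered reads and the log2(FPKM + 1) scale. Gm16197 was 0.36, 0.27, 0.39, 0.41 and 0.44 in Rnaseh2b and 0.15, -0.23, -0.14, 0.07 and -0.07 in control. Every mutant lay above every control, which is description only, and the mean difference of 0.42 did not pass the test (adjusted p = 0.24, limma). Cdkn1a was 4.17, 4.20, 4.31, 3.93 and 4.74 log2 CPM in Rnaseh2b and 4.21, 4.56, 4.17, 4.78 and 4.70 in control, which overlapped, with a difference of -0.21 and an interval from -0.51 to 0.09. Ccng1 and Zmat3 differed by 0.21 and 0.23 and were not called, but both passed when control 2, the highest control for each, was left out. Beside these values, granule neuron genes summed to 2618 to 3208 CPM in Rnaseh2b and 3265 to 3594 in control, and Purkinje cell genes to 6062 to 7278 against 5049 to 5815 CPM. Neither pair of ranges overlapped, although none of these genes was called, and 1 of 5 midbrain genes and 1 of 5 astrocyte genes were called higher. The part of these cells in the Psrc1 result was not tested.

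In Atm alone at P28, where 1.86% of all genes were called, no member passed the adjusted test and 4 of the 10 had an unadjusted p below 0.05, as 2832 of all genes did. Cdkn1a was 4.97, 4.93, 4.88, 5.03 and 4.89, above all 5 controls, by 0.46 (adjusted p = 0.115, limma). Mdm2 was 5.98, 5.99, 5.77, 6.02 and 6.03 against 5.73, 6.0, 5.75, 5.65 and 5.69 in control. It was 0.19 higher (adjusted p = 0.1) and was called when control 2 or Atm 3 was left out.

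**Figure D4:**
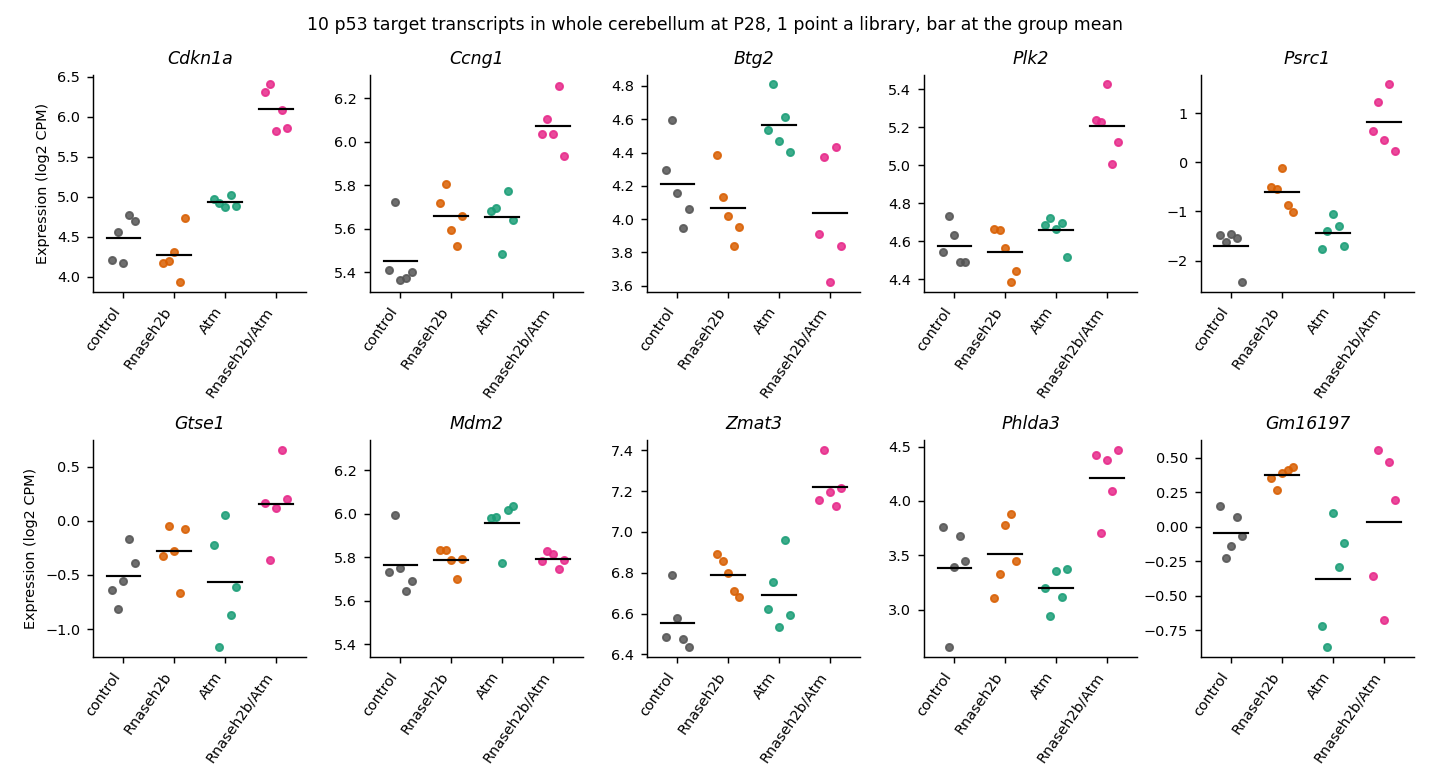
Expression of the 10 transcripts at P28 in log2 CPM (vertical axis) by group (horizontal axis), with 1 point for each library and a bar at the group mean. The 5 Rnaseh2b/Atm libraries lie above all others for Cdkn1a, Ccng1, Plk2, Psrc1 and Zmat3, but not for Mdm2 or Btg2.

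In Rnaseh2b/Atm at P28, 7 of the 10 members rose against control and none fell, where 63.6% of all tested genes were called and 31.5% were higher. Cdkn1a led with Psrc1. Cdkn1a was 6.31, 6.41, 5.82, 6.09 and 5.86 log2 CPM, above every library of the other groups, and 1.61 ± 0.144 above control (adjusted p = 1.6e-08, limma). Psrc1 was 0.63, 1.24, 0.46, 1.59 and 0.23, also above every other library, and 2.54 ± 0.269 above control (adjusted p = 1.48e-07). It reached 1 CPM in these 5 libraries only, so it had to differ, and Gtse1 passed the filter through 4 of them and 1 Atm library.

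Ccng1 was 6.03, 6.10, 6.03, 6.25 and 5.93 in Rnaseh2b/Atm, 0.62 ± 0.0762 above control. Zmat3 was 7.15, 7.40, 7.20, 7.13 and 7.22, which is 0.67 ± 0.08 above control. Plk2 was 5.24, 5.23, 5.43, 5.01 and 5.12 and lay 0.63 ± 0.0756 above it. These 3 were higher in all 5 double mutants than in any library of the other groups. Phlda3 was 4.43, 3.70, 4.37, 4.09 and 4.47 against 3.76, 2.65, 3.39, 3.68 and 3.45 in control, and rose by 0.83 ± 0.193 (adjusted p = 0.00102, limma). Gtse1 was 0.17, -0.36, 0.12, 0.65 and 0.20 against -0.64, -0.82, -0.55, -0.17 and -0.39, and rose by 0.67 ± 0.227 (adjusted p = 0.0148, limma). In each of these genes replicate 2 of the double mutant fell within the control range. Mdm2 was 5.78, 5.83, 5.81, 5.74 and 5.79, and its difference from control was 0.03 with a 95% interval from -0.10 to 0.15. Btg2 and Gm16197 differed from control by -0.17 and 0.08 and were not called. Thus Gm16197 was not called in the P28 double mutant, at 40 to 88 reads against 28 to 94 in control, while its neighbour Cdkn1a was 1.61 higher. Its rise at P5, in total RNA, is not compared with these poly-A values.

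Against Atm alone, where 61% of all genes were called, 30% higher and 31% lower, 7 members were higher and 2 lower. Cdkn1a rose by 1.16 ± 0.144 (adjusted p = 1.05e-06, limma), Psrc1 by 2.27 ± 0.269 and Phlda3 by 1.02 ± 0.193. Ccng1, Zmat3, Plk2 and Gtse1 rose by 0.42 to 0.72. The 2 that fell were Btg2, by 0.53 (adjusted p = 0.00462), and Mdm2, by 0.17 (adjusted p = 0.0198). The Mdm2 call was lost without Atm 5. Against Rnaseh2b alone, 6 members rose and none fell, where 49.5% of all genes were called and 24.9% were higher, with Cdkn1a 1.83 ± 0.144 higher (adjusted p = 9.02e-09, limma). Psrc1 is counted in both comparisons, although it passed the filter only through the Rnaseh2b/Atm libraries, where it is high.

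The Rnaseh2b effect differed by Atm status for 5 members at P28, where 37.7% of all genes were called for that difference and 18.7% were larger without Atm. It was larger without Atm for Cdkn1a, by 1.37 ± 0.203 (adjusted p = 4.52e-05, limma), Psrc1 by 1.18 ± 0.38 (0.0196), Phlda3 by 0.89 ± 0.273 (0.0146), Plk2 by 0.58 ± 0.107 (0.000338) and Zmat3 by 0.29 ± 0.113 (0.0494). The first 4 kept the call in all 27 alternative settings and leave-outs, and Zmat3 lost it in 19 of them. Psrc1 passed the filter only through the Rnaseh2b/Atm libraries, where it is high, so its call is no independent support. Ccng1 differed by 0.21 with an interval from -0.01 to 0.44.

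Values of other genes moved with this group and stand beside these results. The midbrain sum of 484 to 627 CPM and the granule neuron sum of 761 to 1571 CPM are given above, and microglial genes summed to 133 to 181 CPM against 83.0 to 113 elsewhere. Against control, all 5 midbrain genes were called higher, all 5 granule neuron genes lower and all 8 microglial genes higher. Endothelial genes summed to 187 to 206 CPM against 150 to 180 elsewhere. Mitotic genes summed to 66.3 to 79.9 CPM against 36.7 to 47.2, but the gap was Ube2c, a ubiquitin-conjugating enzyme of mitotic exit, at 21.7 to 37.7 CPM against at most 1.90. The other 17 summed to 38.7 to 46.1 CPM in Rnaseh2b/Atm and 36.2 to 45.7 in the other groups, which overlapped. The part of midbrain, granule neuron, microglial and endothelial RNA in the members' results was not tested. Trp53 transcripts were 4.49 to 4.69 log2 CPM in Rnaseh2b/Atm and 4.18 to 4.46 in the other groups, 0.33 above control (adjusted p = 3.84e-05, limma).

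The genes most like Ccng1 over the 20 P28 libraries were Slc5a3 (r = 0.974), Ywhaz, B3galt1, Col4a5 and Mospd1, and those most like Cdkn1a were Dtx4 (r = 0.96), Gm11547, Prss23, Ccl25 and Auh. The Rnaseh2b/Atm libraries form a cluster apart from the other 3 groups for both members, so these values describe mainly that group.

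Other p53 targets at P28 moved in both directions, as did genes in general, of which 63.6% were called in Rnaseh2b/Atm against control and 31.5% were higher. Of 13 apoptosis targets 8 rose and 4 fell in Rnaseh2b/Atm against control, with Pmaip1 2.30 higher, Eda2r, a death-receptor family member, 2.19 higher and Trp53inp1 0.65 higher. The median was 0.37 beside -0.02 over all genes. Of 11 metabolism and repair targets 3 rose and 5 fell, with Sesn2 higher by 0.65, whereas Fdxr and Ddb2 fell by 0.61 and 0.42. Of 10 p53 regulators 3 rose and 6 fell. Among them the phosphatase gene Ppm1d fell by 1.02, the kinase gene Hipk2 by 1.69 and Mdm4, a relative of Mdm2, by 0.51. Of 10 tested relatives of the members 2 rose and 3 fell, with Ccng2 lower by 0.76 and Btg1 by 1.03. Of 11 G1 genes 1 rose, Ccnd2 by 1.77, and 4 fell. In Rnaseh2b alone, Pmaip1 rose by 1.12 (adjusted p = 0.00578, limma), 1 of the 13 apoptosis targets.

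At 9 weeks, in Rnaseh2b against control, 1 member rose and 1 fell of the 8 tested, where 20.2% of all 15078 tested genes were called, 10.6% higher and 9.57% lower. Phlda3 ranged from 3.11 to 3.98 log2 CPM with a median of 3.41 in Rnaseh2b, and from 2.31 to 3.09 with a median of 2.76 in control. No library overlapped, and the difference was 0.66 ± 0.133 (adjusted p = 0.00399, limma). Cdkn1a went the other way, from 1.58 to 2.37 with a median of 2.05 in Rnaseh2b and from 2.14 to 2.78 with a median of 2.43 in control. The groups overlapped in part and all 7 mutants lay below the control mean, by 0.44 ± 0.139 on average (adjusted p = 0.0336, limma).

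**Figure D5:**
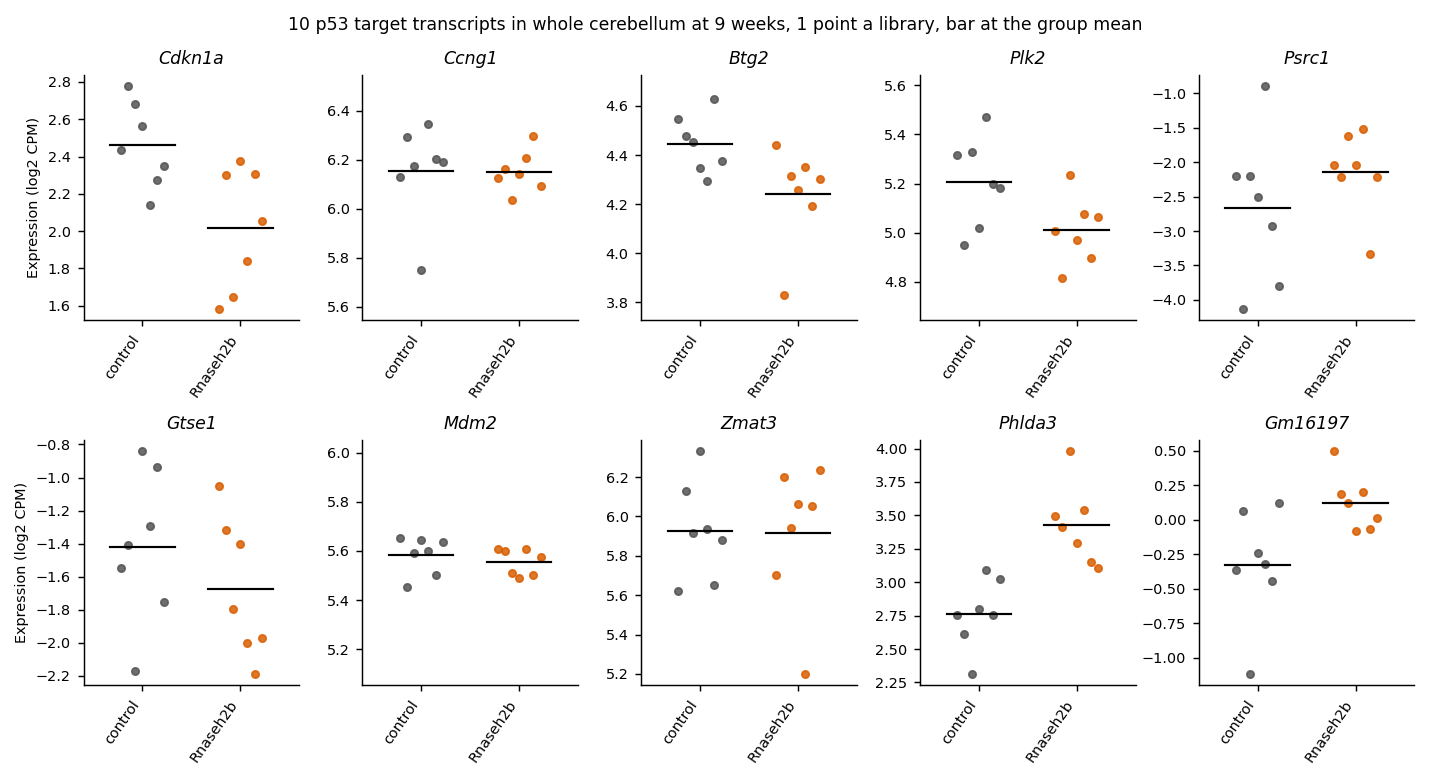
Expression of the 10 transcripts at 9 weeks in log2 CPM (vertical axis) in 7 control and 7 Rnaseh2b libraries, with 1 point for each library and a bar at the group mean. Phlda3 is above all controls in every mutant, from 3.11 up, and Cdkn1a is lower in the mutants, with a difference of -0.44.

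The 9-week libraries fall into 2 ranges of library codes in their labels, 11 to 16 with 3 of each group and 50 to 58 with 4 of each. In codes 11 to 16 alone, Phlda3 was 1.07 higher (adjusted p = 0.0187, limma) and Cdkn1a 0.79 lower in a test that missed the threshold (adjusted p = 0.0501). In codes 50 to 58 alone neither passed, with 0.35 for Phlda3 (adjusted p = 0.193) and -0.19 for Cdkn1a (adjusted p = 0.559). Leaving out Rnaseh2b 1, 3 or 5 or control 2, 3 or 4 also ended the Cdkn1a call. Mdm2 was 5.49 to 5.61 in Rnaseh2b and 5.45 to 5.65 in control, a difference of -0.03 with an interval from -0.12 to 0.06. Ccng1 ranged from 6.04 to 6.30 in Rnaseh2b and from 5.75 to 6.34 in control and differed by 0.00 with an interval from -0.16 to 0.15. Btg2 at -0.21, Plk2 at -0.20 and Gm16197 at 0.45 did not pass (adjusted p = 0.0822, 0.0838 and 0.0804, limma). Psrc1 and Gtse1 were under the filter, with highest values of -0.89 and -0.84 log2 CPM.

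Of the other lists at 9 weeks, where 10.6% of all genes were called higher and 9.57% lower, 1 of 11 apoptosis targets rose, Aen by 0.26, and 4 of 10 p53 regulators fell, among them Ppm1d by 0.40, Usp7 by 0.18 and Mdm4 by 0.22. Granule neuron genes summed to 988 to 1570 CPM in Rnaseh2b and 1689 to 2127 in control, and microglial genes to 102 to 141 CPM against 79.5 to 94.4. Neither pair of ranges overlapped, with 4 of 5 granule neuron genes called lower and 6 of 8 microglial genes called higher. Of 5 astrocyte genes 3 were called higher, and the part of these genes in the Phlda3 and Cdkn1a results was not tested.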

How the data were processed

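RNA-seq of whole mouse cerebellum was analysed at P5 (20 libraries), P28 (20) and 9 weeks (14). The values deposited by the authors are log2 CPM (log2 of counts scaled to library size, with a small prior), with FPKM beside them. Trim Galore, STAR, BWA, HTSeq, limma and the mm9 build are named in the submitters' processing notes, without roles or versions, and the annotation is not given in the sources used here.

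The deposited P5 and P28 log2 CPM are whole reads scaled by library size: for 100% of values, reads came out whole within 0.01. Reads that fall in no gene, or in no single one, made up 19.7% to 31.8% of the P5 reads and were left out of the tests. At 9 weeks the deposited values, log2 CPM and FPKM alike, had been shifted so that the mean of each gene is the same in both ranges of library codes. The 9-week FPKM hold 30976 values below 0, and depth there is unknown.

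Genes at 1 CPM or more in 3, 5 or 7 libraries at P5, P28 or 9 weeks were tested. One linear model per age over all its groups, without a replicate block, was fitted to the log2 CPM with limma 3.58.1 (R 4.3.3, with a mean-variance trend), and a gene was called at a Benjamini-Hochberg adjusted p below 0.05 over all genes tested. The deposited values are not counts, so no count model was used for the reported fit. At P5 and P28, voom on the recovered reads was an alternative. Values after ± are SD for levels and SE for differences, and intervals are 95% intervals of the model. In data simulated on the P5 comparison of Rnaseh2b with control over 15421 genes, 87% of genes changed by 1 log2 and 99% of those changed by 2 were called. Of the genes called there, 6.53% had not been changed. Values were drawn for each gene on its own, without shifts shared by a whole library, so recovery in the real data may be lower.

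The members and the gene lists were chosen with earlier results of these data known. Named were the 10 members, the deleted genes, up to 3 called genes of each other list with the smallest adjusted p, and, of the 5 genes with the highest correlation with Ccng1 or Cdkn1a at P5 and P28, all but 1 that is not reported here. Singled out after their values were seen were Pax7, Th and the mitotic gene Ube2c. Alternatives were no filter, log2(FPKM + 1), log2(FPKM + 0.1), equal library medians, fitting only the compared groups, a replicate block, voom on the recovered reads, both libraries that stood apart left out together, each range of library codes alone, and each library left out in turn. Promoter windows were read from RefSeq for GRCm38.p6 and not matched to mm9 coordinates.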

Additional observations from a re-analysis of the deposited data

Results flagged for a closer look

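Each member was checked in each group of 4 to 7 libraries, and 9 of these 80 sets held a library far from the others. Chance gives about 1 in 20 for a single set, but the sets share libraries, so the 2 shares cannot be weighed against each other. P5 groups of 3 libraries were not checked. Flagged at P5 were Ccng1 in Rnaseh2b/p53 4, at 6.07 log2 CPM with the nearest at 5.90, and Plk2 in Rnaseh2b/p53 1, at 5.80 with the nearest at 5.93. At P28 control 2 was high for Ccng1, at 5.72 with the nearest at 5.41, and control 5 was low for Psrc1, at -2.44 with the nearest at -1.61. Atm 3 was low for Mdm2, at 5.77 with the nearest at 5.98, and Atm 5 was low for Plk2, at 4.52 with the nearest at 4.67. At 9 weeks control 4 was low for Ccng1, at 5.75 with the nearest at 6.13. Rnaseh2b 2 was low for Btg2 there, at 3.83 with the nearest at 4.19, and Rnaseh2b 6 was low for Psrc1, at -3.33 with the nearest at -2.22.

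The effect of Rnaseh2b deletion differed with Atm status at P28 for Cdkn1a by 1.37, Psrc1 by 1.18, Phlda3 by 0.89, Plk2 by 0.58 and Zmat3 by 0.29 log2, all higher without Atm. Of these, Psrc1 passed the filter only through the Rnaseh2b/Atm libraries. The midbrain and granule neuron values of the Rnaseh2b/Atm libraries stand beside these differences, and their part was not tested.

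For Cdkn1a and Btg2, Rnaseh2b and control lay in opposite order at P5 and 9 weeks. At P5 every Rnaseh2b library lay above the control mean, by 0.41 on average for Cdkn1a and 0.20 for Btg2, and at 9 weeks every one lay below it, with differences of -0.44 and -0.21. By limma neither gene was called at P5 (adjusted p = 0.291 and 0.794), and Btg2 was not called at 9 weeks (adjusted p = 0.0822). Without control 2 and Atm 1, the P5 difference of Btg2 was -0.06, while that of Cdkn1a was 0.61. The opposite order of Btg2 thus rests on control 2, since Atm 1 enters neither group mean. The difference between the ages was not tested, since the ages were processed and normalized separately.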

How the results depend on the processing

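No direction reversed among called members. Filtering, log2(FPKM + 0.1) and equal library medians left every count of called members within 1.5 times. With log2(FPKM + 1), and with voom on recovered reads, Rnaseh2b against control at P28 had 0 members called in place of 1. With only the compared groups fitted, P5 counts were 0 in place of 2 for Rnaseh2b against control and 2 in place of 4 for Rnaseh2b/Atm against control, where all genes called went from 1520 to 42. That fit holds fewer samples. Without control 2 and Atm 1 together, 4 members were called in place of 2 for Rnaseh2b against control, and 1 (Cdkn1a) in place of 0 for the interaction with p53. In the 7 P5 and P28 comparisons where limma called no member, voom called none either.

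Between same-numbered libraries of different groups, deviations from the group mean had median correlations of 0.067 (P5), 0.07 (P28) and -0.0996 (9 weeks). For other pairs the medians were -0.0145, -0.00095 and 0.068. Of the same-numbered pairs, 21 of 46 at P5, 12 of 30 at P28 and 0 of 7 at 9 weeks were over 0.1. That share was not taken for other pairs, so pairing by number at P5 and P28 is neither shown nor excluded. With the replicate number as a block, 1 member in place of 2 was called for P5 Rnaseh2b/Atm against Rnaseh2b, 2 in place of 4 for Rnaseh2b/p53 against Rnaseh2b, and 1 in place of 2 at 9 weeks. Codes 11 to 16 alone gave 1 and codes 50 to 58 alone gave 0 in place of 2.

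Leaving out 1 library at a time gave at P5 0 to 2 called for Rnaseh2b against control, 3 to 5 for Rnaseh2b/Atm against control, 2 to 4 against Atm and 1 to 2 against Rnaseh2b. Rnaseh2b/p53 gave 1 to 3 against Rnaseh2b and 4 to 5 against Rnaseh2b/Atm, and the other P5 comparisons 0. At P28 it gave 0 to 3 for Rnaseh2b, 0 to 2 for Atm, 7 for Rnaseh2b/Atm against control, 8 to 10 against Atm, 6 to 7 against Rnaseh2b and 4 to 5 for the interaction, and at 9 weeks 1 to 2. Of the members' values under all alternatives, 3085 stayed on their side of the threshold, 78 lost and 33 gained a call, and the cause was not tested.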
